A study of Homo sapiens with 10 samples.

Results

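The CDK inhibitors are small proteins that bind cyclin-dependent kinases (CDKs) and hold back the cell cycle. The genes read here were the 3 CIP/KIP genes CDKN1A (p21), CDKN1B (p27) and CDKN1C (p57), the 4 INK4 genes CDKN2A (p16 and, from a second reading frame, ARF), CDKN2B (p15), CDKN2C (p18) and CDKN2D (p19), the CDK-directed phosphatase gene CDKN3, and MTAP, a gene of the methionine salvage pathway that lies beside CDKN2A and CDKN2B in band 9p21. These 9 genes were chosen by their symbols, and each had 1 row in both count tables, of 26256 and 55736 rows. INK4 proteins bind CDK4 and CDK6 and keep cyclin D from them, whereas CIP/KIP proteins act on the cyclin E, cyclin A and cyclin D complexes. Both routes keep the RB protein bound to E2F factors, which otherwise drive entry into S phase. CDKN1A is also the classic cell cycle target of p53.

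MCF10A is an immortalized human breast epithelial line that does not form tumors. RNA-seq was read in parental MCF10A cells (2 libraries) and in G12V cells (2 libraries), which are MCF10A cells transduced with a lentiviral vector for H-RAS carrying valine at residue 12, together with a GFP vector, and selected with hygromycin. They were not described as a single clone. The study reports that they first stopped growing and resumed growth a few weeks later. Parental cells were not said to have had the vectors or the selection. Apart from hygromycin no drug treatment was described for either group. In a second experiment MCF10A cells without the oncogene were given 10 µM Nutlin-3a for 4 h (3 libraries), which blocks the binding of MDM2 to p53, or the solvent DMSO for 4 h (3 libraries). All cells were kept in medium with EGF, insulin, hydrocortisone, cholera toxin and horse serum, all of which were present in the controls too. MCF10A cells are known from earlier genetic work to have lost DNA at 9p21 that holds CDKN2A and CDKN2B. DNA was not measured in these files, so that loss of a gene and absence of its RNA cannot be told apart in the counts.

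The deposited counts summed to between 21538593 and 23683975 per library in the untreated table and between 15453226 and 17378734 in the Nutlin-3a table. HRAS, the introduced gene, averaged 69.3 ± 4.77 CPM (counts scaled to a library of 1e6) in parental cells and 573 ± 82.0 CPM in G12V cells (SD, n = 2 each). MDM2, a p53 target, averaged 113 ± 10.3 CPM with DMSO and 656 ± 153 CPM with Nutlin-3a (SD, n = 3 each). Both changes were differentially expressed (DE), which here means a Benjamini-Hochberg adjusted p under 0.05 by edgeR's quasi-likelihood F-test and an absolute log2 fold change above 0.5. Of 6 epithelial markers, KRT5, KRT14, EPCAM and CDH1 were DE and lower in G12V cells, with KRT14 at 2 to 3 reads and CDH1 at 10 to 12 reads per G12V library, and the summed level of the 6 was 4902 to 5905 CPM in MCF10A and 1361 to 1661 CPM in G12V cells. Of 6 fibroblast markers only LUM was DE, at 0 to 1 reads in MCF10A and 27 to 28 reads in G12V libraries, while COL3A1 was at 0 in all 4. DCN was the highest, at 41.8 ± 23.3 CPM in MCF10A and 50.8 ± 3.22 CPM in G12V cells (SD, n = 2 each). COL1A1 was at 8.70 ± 4.02 and 3.94 ± 0.982 CPM (SD, n = 2 each). The summed level of the 6 was 37.4 to 64.7 CPM and 53.4 to 59.9 CPM. None of 5 blood and endothelial markers was DE, and PTPRC and CD3E had 0 to 1 reads in all 4 libraries. CD14 was expressed, at 27.5 ± 13.4 CPM in MCF10A and 30.7 ± 12.6 CPM in G12V cells (SD, n = 2 each). PECAM1 was at 2.32 ± 0.898 and 2.96 ± 0.776 CPM (SD, n = 2 each). The summed level was 19.7 to 40.1 CPM and 25.4 to 42.1 CPM, most of it from CD14. With Nutlin-3a no marker was DE. The part of the epithelial markers in the results on G12V cells was not tested.

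CDKN1A was the member that responded to Nutlin-3a, and it was higher in every treated library than in any control. CDKN1A lies on chromosome 6 from 36644237 to 36655116 in the untreated table and from 36646435 in the other (hg19, plus strand). Its level was 624, 673 and 666 CPM in the 3 DMSO libraries and 2712, 2688 and 3349 CPM in the 3 Nutlin-3a libraries. The groups lay far apart, and the third Nutlin-3a library was the highest. The mean was 654 ± 26.7 CPM with DMSO and 2916 ± 375 CPM with Nutlin-3a (SD, n = 3 each). This is a 4.46-fold rise, or 2.16 ± 0.13 (SE) on the log2 scale, with an adjusted p of 5.16e-04 by edgeR's quasi-likelihood F-test. The log2 fold change stayed between 2.04 and 2.21 when any 1 library was left out, with adjusted p between 8.66e-04 and 0.0123 in the same test. CDKN1A was thus the 1 DE gene of 6 tested members, where 0.170% of 13529 tested genes were DE in either direction and 0.155% were DE and higher. With the replicate number as a block, which pairs these libraries, 165 genes (1.22%) were DE, and CDKN1A was again the only member.

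The region upstream of CDKN1A holds a known p53 response element, which is shown because it is the best described site in any of these genes for the factor that Nutlin-3a releases. A p53 element is made of a repeated 10-base unit with a CATG-like core. A search of the 3000 bases before the gene start in the Nutlin-3a table required both cores to be intact. It allowed at most 2 mismatches in the other bases of the 20-base pattern and no spacer, on both strands. The search found the element 2209 bases upstream on the plus strand of GRCh37 at chr6:36644226-36644245, with 2 mismatches and with the cores in capitals.

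CDKN1A element: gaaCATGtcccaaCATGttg

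The same search found an element before 219 of the 13529 tested genes (1.62%), and before 2 of the 21 genes that were DE and higher with Nutlin-3a (9.52%). CDKN1A is itself among those 2, so the second share includes the gene for which the element is shown. None of the other members had a match in this window in either table. In the untreated table, where 222 of 14376 tested genes (1.54%) had a match, the CDKN1A row started within the element itself, so that its own window did not hold it. A match in this search is a description of letters, and binding was not analysed here.

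The 3 genes of at least 10 CPM whose log2 CPM ran most like CDKN1A over the 6 libraries of this experiment, among 9266 genes, were BTG2 (Pearson's r = 0.998), an antiproliferative gene, a non-coding gene on chromosome 9 from 19453207 to 19455171 (hg19, r = 0.997), and SESN1 (r = 0.994), a stress gene of the sestrin family. All 3 were DE and higher with Nutlin-3a, with log2 fold changes of 2.85, 1.40 and 1.64. The correlations share the same 6 libraries and largely trace the step between the treatments. The non-coding gene lies within 3 Mb of CDKN2A, just after the ceramidase gene ACER2.

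In G12V cells CDKN1A was higher than in MCF10A in both libraries, but with a wide spread. It was at 151 and 201 CPM in MCF10A and at 270 and 727 CPM in G12V cells. The groups did not overlap, and the G12V libraries lay further from each other than the first of them lay from the parental ones. The log2 fold change was 1.50 (SE 0.47) with an adjusted p of 0.106 by edgeR's quasi-likelihood F-test, which did not pass the threshold. Without the second G12V library it was 0.61, and without the first it was 2.04 with an adjusted p of 0.00107 in the same test. DESeq2 and edgeR's exact test, which were alternatives, called CDKN1A DE with adjusted p of 0.00714 and 0.0171.

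**Figure D1:**
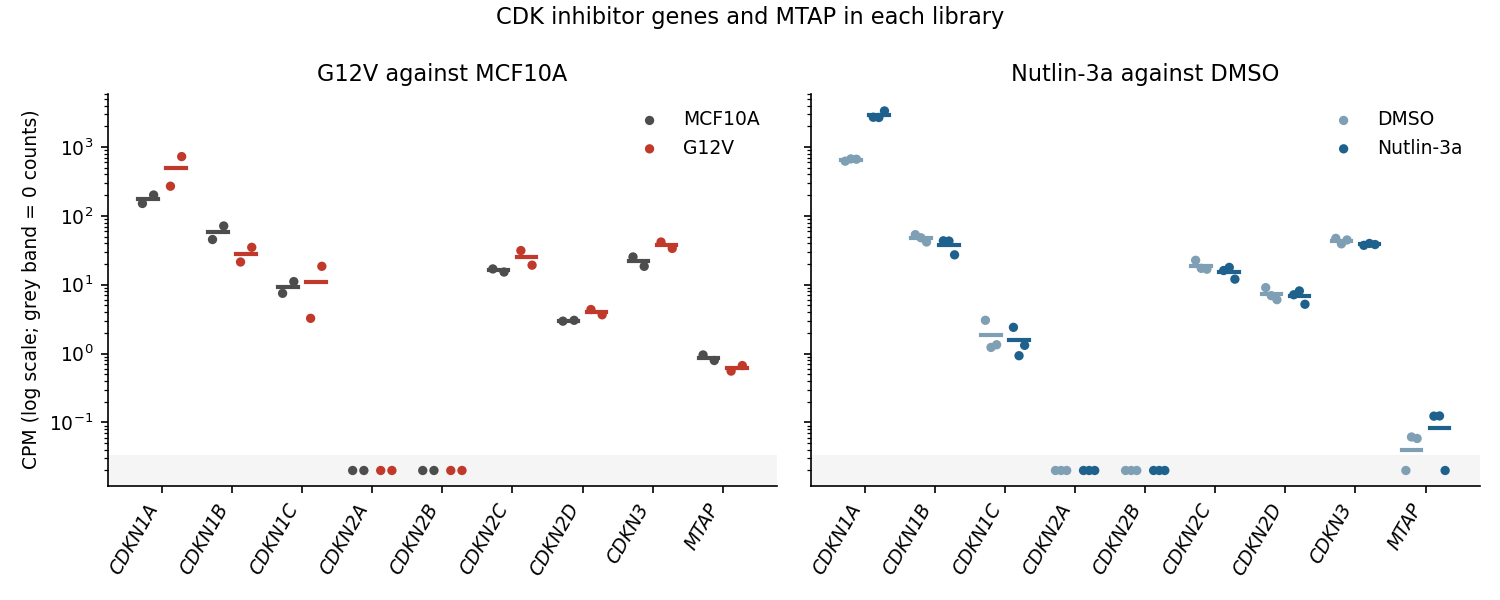
CPM of the 9 members in each library, on a log axis, for MCF10A and G12V cells (left) and DMSO and Nutlin-3a (right); points are libraries, lines are group means, and points in the grey band are at 0 counts. CDKN1A is the highest member in every library, and CDKN2A and CDKN2B are at 0 in all 10.

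CDKN1B showed the opposite direction in G12V cells. The p27 protein that it encodes is held low in growing cells mainly by degradation, through the SKP2 ubiquitin ligase, and its gene is a target of FOXO factors. CDKN1B, on chromosome 12 from 12870204 to 12875316 (hg19, plus strand), was at 45.4 and 71.4 CPM in MCF10A and at 21.4 and 34.9 CPM in G12V cells. Both G12V libraries were under both MCF10A libraries. The log2 fold change was -1.05 (SE 0.33) with an adjusted p of 0.108 by edgeR's quasi-likelihood F-test, short of the threshold, and it lay between -1.45 and -0.69 when 1 library was left out. Without the second G12V library the gene was DE in that test (adjusted p = 0.0172), as it was by DESeq2 (0.0307) and by edgeR's exact test (0.0334). With Nutlin-3a the level was 43.4, 43.1 and 27.2 CPM against 53.4, 48.1 and 41.8 CPM with DMSO. These groups overlapped, and the log2 fold change was -0.33 (SE 0.19). The treated library was the lower one in all 3 pairs of the same number, and with that number as a block the difference was -0.35 ± 0.10 (SE) with an adjusted p of 0.119 by edgeR's quasi-likelihood F-test.

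CDKN1C, the p57 gene, an imprinted gene on chromosome 11 from 2904448 to 2906995 (hg19, minus strand), differed more between replicates than between groups. It was at 7.50 and 11.1 CPM in MCF10A and at 3.25 and 18.5 CPM in G12V cells, so that the 2 G12V libraries lay on either side of the parental ones. The log2 fold change of 0.22 (SE 0.74) became -1.52 without the second G12V library and 0.99 without the first. With DMSO it was at 3.04, 1.23 and 1.34 CPM and with Nutlin-3a at 2.40, 0.930 and 1.32 CPM, or -0.28 ± 0.47 (SE) on the log2 scale. The groups overlapped in both experiments, and replicates of a group differed by more than the group means did.

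CDKN2C and CDKN2D are the INK4 genes outside 9p21. CDKN2C, on chromosome 1 from 51434367 to 51440306 (hg19, plus strand), was at 17.0 and 15.3 CPM in MCF10A and at 31.3 and 19.2 CPM in G12V cells. Its groups did not overlap. The difference was 0.65 ± 0.30 (SE) on the log2 scale, with an adjusted p of 0.240 by edgeR's quasi-likelihood F-test, and it was 0.25 without the first G12V library. CDKN2D, on chromosome 19 from 10677138 to 10679655 (hg19, minus strand), was at 2.95 and 3.04 CPM in MCF10A and at 4.36 and 3.66 CPM in G12V cells, or 0.42 ± 0.33 (SE) on the log2 scale. Its counts were low, between 65 and 102 reads per library. With Nutlin-3a neither gene passed that test. CDKN2C was at 16.1, 17.9 and 12.04 CPM against 22.6, 17.3 and 16.8 CPM with DMSO, or -0.30 ± 0.19 (SE) on the log2 scale. CDKN2D was at 7.14, 8.12 and 5.20 CPM against 9.07, 6.93 and 6.07 CPM, or -0.11 ± 0.24 (SE) on the log2 scale.

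CDKN3 encodes a phosphatase that removes the activating phosphate from CDKs and is expressed mainly in dividing cells. On chromosome 14 from 54863673 to 54886934 (hg19, plus strand), it was at 25.3 and 18.5 CPM in MCF10A and at 41.7 and 33.7 CPM in G12V cells. Both G12V libraries were above both parental ones. The difference was 0.78 ± 0.25 (SE) on the log2 scale, with an adjusted p of 0.112 by edgeR's quasi-likelihood F-test, and it ranged from 0.57 to 1.05 when 1 library was left out. With Nutlin-3a it was at 37.3, 39.7 and 38.4 CPM, against 47.1, 39.3 and 44.7 CPM with DMSO. The groups overlapped, and the difference was -0.18 ± 0.11 (SE) on the log2 scale.

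Between MCF10A and G12V cells none of the 7 tested members was DE by edgeR's quasi-likelihood F-test, where 11.0% of 14376 tested genes were. With an unadjusted p under 0.05 and more than a 1.3-fold change there were 3, CDKN1A, CDKN1B and CDKN3, where 25.6% of tested genes met both, and DESeq2 and edgeR's exact test each called CDKN1A and CDKN1B, where they called 16.0% and 17.6% of tested genes. With the replicate number as a block CDKN1A, CDKN1B, CDKN2C and CDKN3 were DE, where 4158 of 14376 tested genes were. Their adjusted p by edgeR's quasi-likelihood F-test with that block were 4.87e-04, 2.1e-04, 0.0288 and 0.00261. The groups did not overlap for 6 of the 7, all but CDKN1C, and that was so for 54.8% of tested genes. With Nutlin-3a CDKN1A alone among the 6 tested members had groups that did not overlap, where 8.07% of the tested genes did. The 5 other tested members had log2 fold changes between -0.33 and -0.11 there, each with an adjusted p above 0.9 in that test, beside a median of 0.01 over all tested genes.

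**Figure D2:**
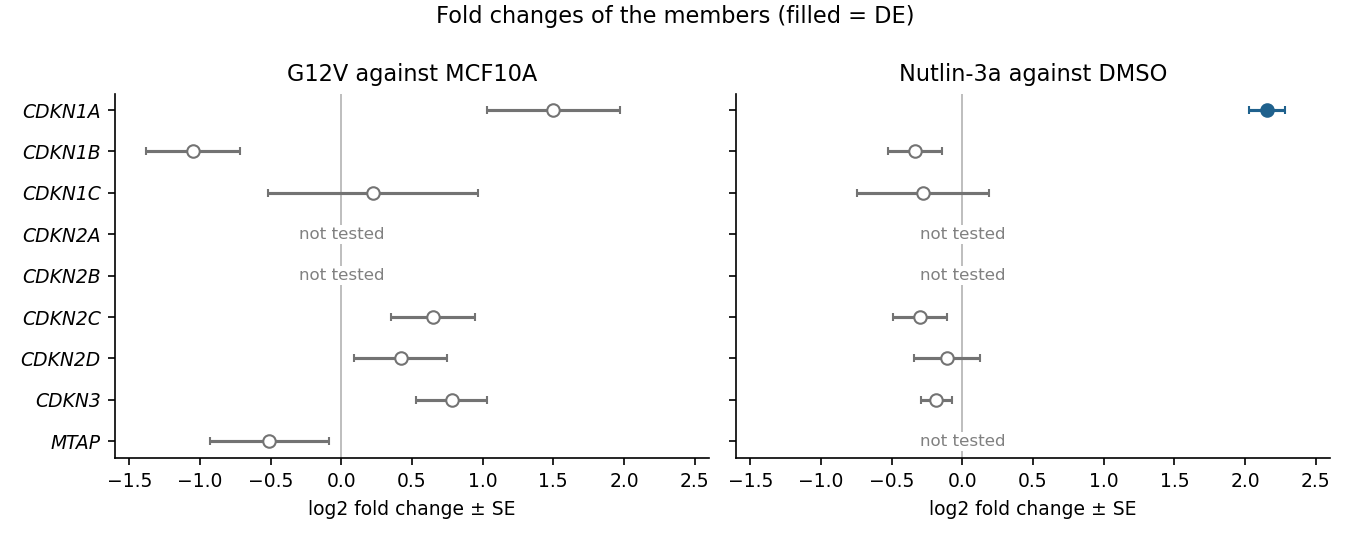
Log2 fold change of each tested member with its standard error, for G12V against MCF10A (left, 2 libraries a group) and Nutlin-3a against DMSO (right, 3 libraries a group); filled points are DE. CDKN1A with Nutlin-3a is the only filled point, and the G12V changes of CDKN1A (1.50) and CDKN1B (-1.05) are the largest of the open ones.

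**Figure D3:**
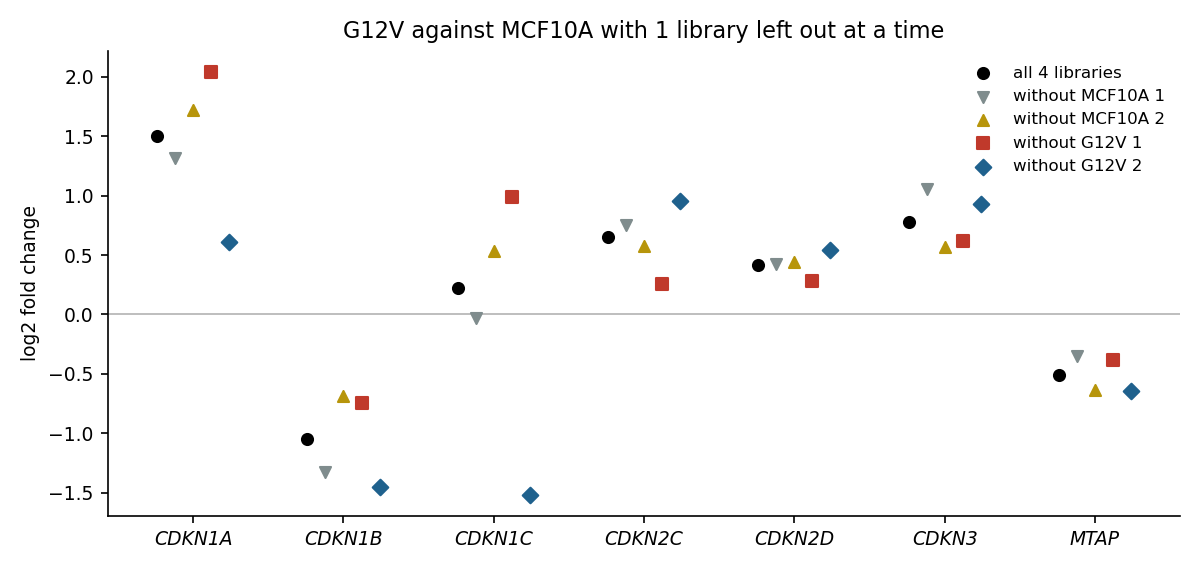
Log2 fold change of the 7 members tested between G12V and MCF10A, from all 4 libraries and with each library left out in turn. CDKN1A stays above 0 and CDKN1B below 0 throughout, while CDKN1C moves from -1.52 to 0.99 with the G12V library that is left out.

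The levels of the members were set beside each other per kb of the GENCODE v44 exons (lifted to GRCh37) that lie within the span of each gene's row. In MCF10A CDKN1A was highest at 58.8 ± 11.7 CPM per kb (SD, n = 2 each), followed by CDKN1B at 13.0 ± 4.09, CDKN3 at 12.7 ± 2.80, CDKN2C at 7.33 ± 0.537, CDKN1C at 3.77 ± 1.03 and CDKN2D at 2.11 ± 0.0421 CPM per kb. CDKN1B and CDKN3 did not differ beyond their spread. In G12V cells CDKN1A and CDKN3 came first, at 166 ± 108 and 21.9 ± 3.29 CPM per kb (SD, n = 2 each), followed by CDKN2C at 11.5 ± 3.89 CPM per kb. CDKN1B at 6.27 ± 2.13 and CDKN2D at 2.82 ± 0.350 CPM per kb both overlapped CDKN1C, which was at 4.41 ± 4.38 CPM per kb. With DMSO CDKN1A was at 239 ± 9.74, CDKN3 at 25.4 ± 2.34 and CDKN1B at 12.9 ± 1.58 CPM per kb (SD, n = 3 each). CDKN2C at 6.27 ± 1.07 and CDKN2D at 5.17 ± 1.09 CPM per kb had overlapping ranges, and CDKN1C was lowest of these at 0.754 ± 0.410. With Nutlin-3a the order of means was the same, with CDKN1A at 1063 ± 137, CDKN3 at 22.3 ± 0.706, CDKN1B at 10.3 ± 2.52 and CDKN1C at 0.625 ± 0.308 CPM per kb (SD, n = 3 each), and CDKN2C and CDKN2D overlapped between 3.99 and 5.71 CPM per kb. The place of CDKN1B depends on the length used, since 4.492 kb of its exons lie within its row in the untreated table and 3.689 kb in the other, of 9.255 kb in all. Per kb of all its exons it was at 6.31 in MCF10A, 3.04 in G12V cells, 5.16 with DMSO and 4.09 with Nutlin-3a, under CDKN3 in all 4 groups. By that measure its mean was also under that of CDKN2C in G12V cells (8.38), with DMSO (6.27) and with Nutlin-3a (5.08). It was under CDKN1C in G12V cells (4.39) and under CDKN2D with Nutlin-3a (4.53) as well. The 2 tables were normalized separately and rest on different annotations, so that levels of MCF10A and DMSO libraries stand side by side and were not compared.

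At 9p21 CDKN2A and CDKN2B had no counted read in any library. CDKN2A, on chromosome 9 from 21967751 to 21994490, and CDKN2B, from 22002902 to 22009312 (hg19, both on the minus strand), were at 0 counts in all 10 libraries. A count of 0 allows up to 3 counts, which corresponds to 0.128 to 0.136 CPM in the untreated libraries and 0.166 to 0.197 CPM in the Nutlin-3a experiment, for counting error only. Neither gene had enough reads for a test, and neither was detected in G12V cells or after Nutlin-3a. MTAP, on chromosome 9 from 21802635 to 21865969 (hg19, plus strand), had 21 and 18 reads in the MCF10A libraries, against 13 and 15 in the G12V libraries. This was 0.954 and 0.793 CPM against 0.556 and 0.669 CPM, a difference of -0.51 ± 0.42 (SE) on the log2 scale with an adjusted p of 0.534 by edgeR's quasi-likelihood F-test. In the Nutlin-3a table MTAP had 0, 1 and 1 reads with DMSO and 2, 2 and 0 reads with Nutlin-3a, too few for a test. Its row there is longer, from 21802648 to 21931646, and is covered on the same strand by the row of a non-coding gene that had 0 reads. That same non-coding row also covers CDKN2A and CDKN2B whole in the Nutlin-3a experiment, on the opposite strand, and the kit did not keep strand. How reads on shared exons were assigned is not given in the sources used here. The part of such overlaps in the counts was not tested.

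The start regions of these 3 genes are shown because they are the promoters from which no RNA, or nearly none, was counted. Each run is the 100 bases before a RefSeq transcript start on GRCh38.p14, read along the gene's strand, with CG pairs in capitals. Promoter 1 of CDKN2A, which is chr9:21995325-21995424, is the upstream one, and promoter 2 is chr9:21974858-21974957. Those of CDKN2B and MTAP are chr9:22009306-22009405 and chr9:21802536-21802635.

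CDKN2A promoter 1: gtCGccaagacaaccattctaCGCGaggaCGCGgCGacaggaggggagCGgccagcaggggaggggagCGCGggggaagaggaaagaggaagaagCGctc
CDKN2A promoter 2: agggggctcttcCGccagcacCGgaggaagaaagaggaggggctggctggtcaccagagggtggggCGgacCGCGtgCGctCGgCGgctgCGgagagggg
CDKN2B promoter: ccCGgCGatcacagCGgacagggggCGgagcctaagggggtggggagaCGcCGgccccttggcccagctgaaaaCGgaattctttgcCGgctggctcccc
MTAP promoter: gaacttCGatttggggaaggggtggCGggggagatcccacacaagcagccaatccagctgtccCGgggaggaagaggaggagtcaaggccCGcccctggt

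Over the 250 bases before the start, the CDKN2A promoters held 24 and 20 CG pairs, that of CDKN2B 18 and that of MTAP 11. The median over 35093 RefSeq promoters was 11, and 10% to 90% of them held 1 to 31. The expressed members CDKN1A and CDKN1B had 27 each, CDKN3 had 21, CDKN2D had 33 and the 3 promoters of CDKN2C had 7, 35 and 10, so that the members without reads and the expressed members overlapped in this count. Of the 9 members, 8 had an entry, and CDKN1C had none. These are reference sequences, and neither methylation nor the presence of this DNA in the cells was measured here.

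Many of the rows around CDKN2A were also low or at 0. Within 3 Mb on either side, 46 rows of the untreated table lay on chromosome 9, of which 16 had more than 3 counts in some library and 21 were at 0 in every library. In the Nutlin-3a table there were 98 rows, 23 above 3 counts and 61 at 0. The nearest genes on either side that were above 1 CPM in each of the tables were KLHL9, which encodes an adaptor of a ubiquitin ligase, and ELAVL2, which encodes an RNA-binding protein, with 2354.7 kb between them. Of 16 rows between them in the untreated table, 10 had at most 3 counts and 8 were at 0. Of 37 rows in the Nutlin-3a table, 30 had at most 3 counts and 23 were at 0. The 6 rows with more reads in the untreated table were MIR31HG, IFNE, MTAP, CDKN2B-AS1, DMRTA1 and LINC01239. The stretch was thus not without RNA. MIR31HG and CDKN2B-AS1 averaged 4.33 and 2.89 CPM in the untreated table, and DMRTA1, a gene of the DMRT family, averaged 1.38 CPM in the Nutlin-3a table, but none of the 3 was above 1 CPM in both.

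CDKN2B-AS1, the antisense RNA also called ANRIL, had reads in the untreated libraries although the genes on either side of its start had none. It had 63 and 71 reads in the MCF10A libraries and 77 and 51 in those of G12V cells, 3.0 ± 0.187 CPM and 2.78 ± 0.720 CPM (SD, n = 2 each). In the Nutlin-3a table its row was at 0 in all 6 libraries. Its row in the untreated table runs on the plus strand from 21994790 to 22121093 and covers CDKN2B whole, and the library kit did not keep the strand. By GENCODE exons, however, CDKN2B shares 0 of its 4000 exon bases with another gene. CDKN2A shares 593 of 3885 with CDKN2B-AS1. In GENCODE the processed pseudogene UBA52P6, of 382 bases from 22012154 to 22012535, lies wholly within a CDKN2B-AS1 exon, and the Nutlin-3a table alone has a row for it, with 0 to 1 reads. The part of this pseudogene and of the differing annotations in the difference between the tables was not tested. MIR31HG, the host RNA of the microRNA miR-31, likewise had 80 and 144 reads in the MCF10A libraries and 62 and 105 in those of G12V cells, but 1 to 12 reads in the Nutlin-3a table.

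**Figure D4:**
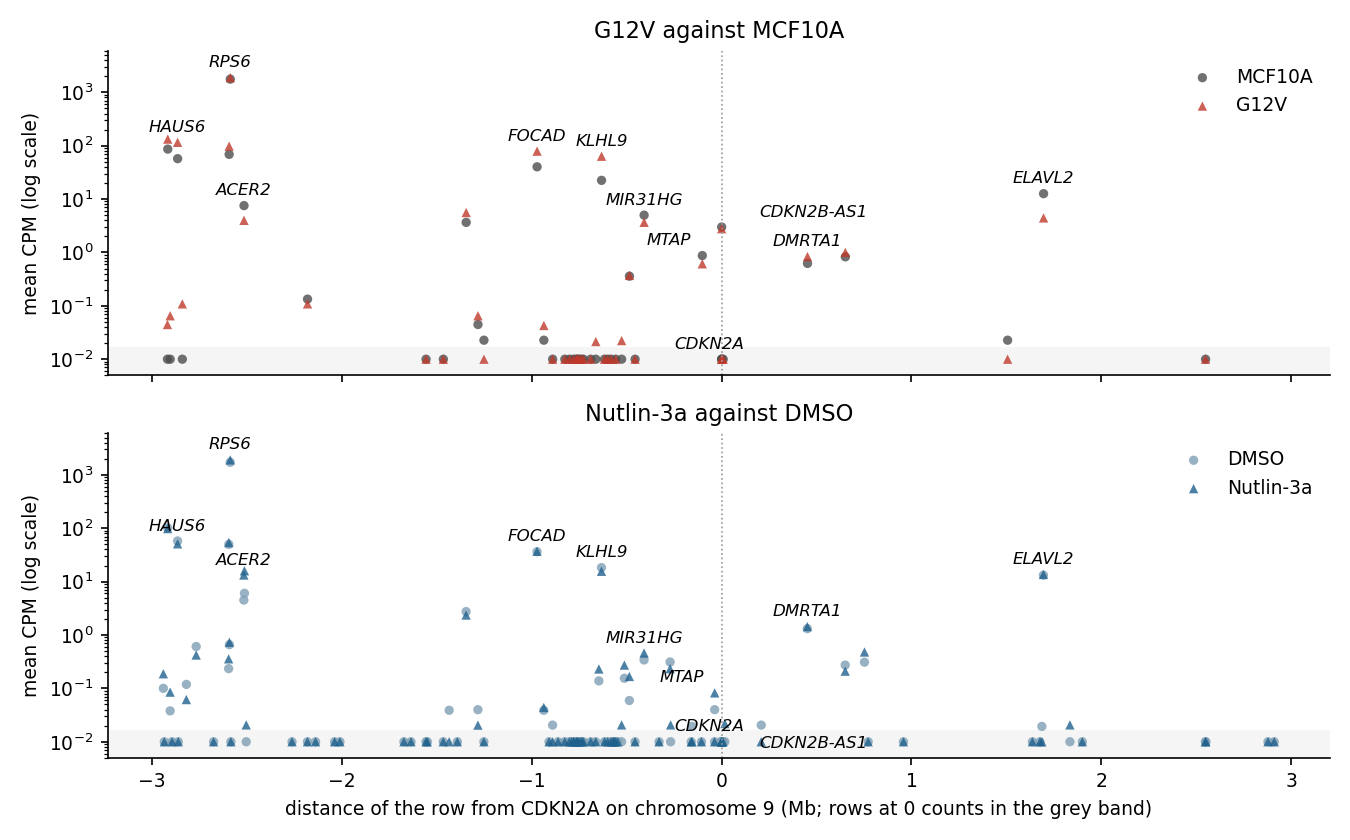
Mean CPM on a log axis of every row within 3 Mb of CDKN2A on chromosome 9 against its distance from CDKN2A in Mb, for the untreated table (top) and the Nutlin-3a table (bottom); the grey band holds means of 0. CDKN2A is at 0 in both, and KLHL9 and ELAVL2 are the nearest genes that are above 1 CPM in both panels, whereas MIR31HG and CDKN2B-AS1 are above it at the top only and DMRTA1 at the bottom only.

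Some genes that flank the stretch from KLHL9 to ELAVL2, those 2 included, differed between G12V and MCF10A cells. Of 22 genes named for their place around 9p21, 15 were tested between the lines, and 3 were DE and higher and 1 DE and lower in G12V cells, where 5.01% and 5.95% of tested genes were. KLHL9 was at 22.4 ± 2.32 CPM in MCF10A and 63.4 ± 5.85 CPM in G12V cells (SD, n = 2 each), a difference of 1.50 ± 0.20 (SE) on the log2 scale with an adjusted p of 0.00902 by edgeR's quasi-likelihood F-test. FOCAD, a focadhesin gene, rose from 40.2 ± 5.23 to 78.9 ± 11.4 CPM (SD, n = 2; log2 fold change 0.97), and HAUS6, a subunit of the augmin complex of the spindle, from 57.1 ± 14.2 to 116 ± 17.6 CPM (SD, n = 2; 1.02). ELAVL2, on the other side, fell from 12.6 ± 2.72 to 4.43 ± 1.35 CPM (SD, n = 2 each), or -1.51 on the log2 scale. The adjusted p values of FOCAD, HAUS6 and ELAVL2 were 0.0347, 0.0494 and 0.0474 in that test, close to the threshold. With the replicate number as a block RRAGA was DE and higher and ACER2 DE and lower, besides KLHL9, FOCAD, HAUS6 and ELAVL2. That fit called 4158 of 14376 tested genes. The median of the 15 was 0.24, against a median of -0.0011 over all tested genes, and 10 of the 15 were above 0. The counts of 3 and 1 became 2 and 0 with upper-quartile factors, with library totals alone or with no filter on low counts, and no gene was DE anywhere without the first MCF10A library.

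With Nutlin-3a none of the 14 tested genes of that list was DE by edgeR's quasi-likelihood F-test. ACER2, an alkaline ceramidase gene, was at 4.51 ± 1.48 CPM with DMSO and 13.3 ± 0.505 CPM with Nutlin-3a (SD, n = 3 each), or 1.56 on the log2 scale with an adjusted p of 0.0893. With the replicate number as a block it was DE and higher (1.58, adjusted p = 3.15e-04), and DESeq2 and edgeR's exact test also called it. The non-coding gene next to it, at 6.04 ± 0.397 and 15.9 ± 1.25 CPM (SD, n = 3 each), was DE without the block. KLHL9, FOCAD, HAUS6 and ELAVL2 had log2 fold changes between -0.23 and 0.05 there.

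No kinase or cyclin partner of the inhibitors passed the test between the lines. None of the 12 CDKs and cyclins was DE in G12V cells by edgeR's quasi-likelihood F-test, nor with an unadjusted p under 0.05 and more than a 1.3-fold change, nor by DESeq2. Their median log2 fold change was 0.0016, and they lay between -0.46 and 0.43. The median moved from -0.28 without the first G12V library to 0.29 without the first MCF10A library. CDK4 and CDK6, the kinases that INK4 proteins bind, were at 108 ± 14.7 and 118 ± 36.0 CPM in MCF10A and at 113 ± 23.7 and 97.5 ± 18.6 CPM in G12V cells (SD, n = 2 each). RB1, the retinoblastoma gene, was at 116 ± 7.35 and 88.2 ± 0.732 CPM (SD, n = 2 each), or -0.39 on the log2 scale.

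None of the 13 RB and E2F genes was DE between the lines either, with a median of -0.06 that moved from -0.14 to 0.35 without those same libraries, and 3 were DE without the first G12V library. With all libraries 1, E2F5, was called by DESeq2 and by edgeR's exact test. With the replicate number as a block RBL1 was DE and lower, and E2F1, E2F5 and E2F8 were DE and higher. That fit called 4158 of 14376 tested genes. E2F5, a repressor-type E2F, was at 7.02 ± 1.58 CPM in MCF10A and 17.8 ± 8.13 CPM in G12V cells (SD, n = 2 each), or 1.35 on the log2 scale with an adjusted p of 0.0889 by edgeR's quasi-likelihood F-test. Of 10 genes for p27 turnover and FOXO factors none was DE, with a median of -0.11, and FOXO4 was called by those same alternatives. FOXO4 was at 14.5 ± 6.73 CPM in MCF10A and 4.20 ± 1.89 CPM in G12V cells (SD, n = 2 each), or -1.79 on the log2 scale (adjusted p = 0.0697 by edgeR's quasi-likelihood F-test). SKP2 differed by 0.16 on the log2 scale and CKS1B, its cofactor, by -0.24.

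The 14 genes whose products are known to hold the INK4 locus silent, mostly Polycomb subunits, had a median of 0.26 in G12V cells, with 11 of 14 above 0, but none was DE by edgeR's quasi-likelihood F-test. With an unadjusted p under 0.05 and more than a 1.3-fold change there were 3 of 14, and DESeq2 called 2, PHC2 and CBX2, beside the 25.6% and 16.0% of all tested genes. With the replicate number as a block PHC2, CBX2 and TBX3 were DE and higher and CBX7 DE and lower, beside 4158 of 14376 tested genes. PHC2 was at 193 ± 37.9 and 367 ± 81.3 CPM (SD, n = 2 each), and CBX2 at 18.0 ± 0.463 and 33.4 ± 10.5 CPM (SD, n = 2 each). With CDKN2A and CDKN2B at 0 in every library, no change of these genes could be set against a change at their target. Among the 12 proliferation markers BUB1 and AURKA were DE and higher with that block. Without the block none of the 12 was DE, and their median was -0.02. Without the first G12V library their median was -0.60 and 1 was DE and lower, and without the first MCF10A library it was 0.42. Their summed level spread from 1594 to 2488 CPM between the MCF10A libraries and from 1425 to 2695 CPM between the G12V libraries. The part of that spread in the members' values was not tested.

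With Nutlin-3a none of these 5 lists' tested genes was DE by edgeR's quasi-likelihood F-test, and more were once libraries of the same number were paired. The CDKs and cyclins had a median of -0.19 over 12 genes, with 9 below 0, the RB and E2F genes -0.14 over 13 and the proliferation markers -0.19 over 12, with 11 below 0, beside 0.01 over all tested genes. With the replicate number as a block 3 cyclins, CCNE1, CCNE2 and CCNA2, were DE and lower, as were E2F2, E2F8, CBX2 and PLK1, where 0.517% of tested genes were DE and lower. Cyclins E and A are the partners of CDK2, the kinase on which p21 acts. CCNE1 was at 29.1 ± 0.664 CPM with DMSO and 19.6 ± 1.49 CPM with Nutlin-3a (SD, n = 3 each), or -0.57 on the log2 scale with an adjusted p of 0.225, and 0.00848 with the block. CCNA2 was at 141 ± 6.28 and 98.7 ± 5.24 CPM (SD, n = 3 each), or -0.51 on the log2 scale with an adjusted p of 0.177, and 0.00523 with the block. E2F2, an activator E2F, was at 15.8 ± 2.18 and 7.32 ± 0.437 CPM (SD, n = 3 each), or -1.11 on the log2 scale with an adjusted p of 0.065, and 3.34e-04 with the block. PLK1, a mitotic kinase, was at 169 ± 11.9 and 103 ± 11.1 CPM (SD, n = 3 each), or -0.71 on the log2 scale with an adjusted p of 0.0893, and 5.29e-04 with the block. DESeq2 and edgeR's exact test called CCNE1, CCNA2, E2F2, E2F8, CBX2 and PLK1 without the block as well, and not CCNE2, where they called 0.673% and 0.613% of tested genes. The genes for p27 turnover and FOXO factors had a median of -0.01 and none was DE with the block.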

How the data were processed

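Poly(A) RNA was sequenced from 10 libraries. Alignment with TopHat and counting with HTSeq were done by the authors, who deposited raw, unnormalized counts per gene with hg19 positions. The untreated libraries and the Nutlin-3a experiment are separate tables with different annotations, and the annotation, the strand setting and the counting of overlapping genes are not given in the sources used here. The kit did not keep strand. Table starts were taken as 0-based and 1 was added, since start plus 1 was the start of the matched GENCODE transcript in 79.9% of 52185 IDs.

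The comparisons were fitted separately in edgeR 4.0.16 (R 4.3.3) after filterByExpr and TMM normalization, by the quasi-likelihood F-test and Benjamini-Hochberg adjustment over all tested genes. CPM use TMM-scaled library sizes and fold changes have a prior count of 0.125. A standard error is the size of the log2 fold change divided by the root of F. Groups came from the labels. Replicates are called biological replicates by the study, and p-values measure the spread between these samples. Alternatives used DESeq2 1.42.0, the exact test of edgeR, other scalings and filters, a replicate block, other thresholds and a prior count of 2, or left out each library in turn. Scripts were tested on simulated data. Python 3.11.15, pandas 2.3.3 and pysam 0.24.0 served for sequences and figures (matplotlib 3.10.9). Intervals and floors cover counting error only.

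The 9 members, the gene lists and the tests were chosen with earlier results of these data known. The text names every member, HRAS and MDM2 as checks, and members of the lists that were DE in a fit or that a sentence describes. It names or describes some of the rows within 3 Mb of CDKN2A, some genes overlapping a member, and the 3 genes most like a DE member. The length behind a level per kb was chosen after the data were seen. CDK4, CDK6, RB1, SKP2 and CKS1B were named after their values were seen.

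Libraries of both Nutlin-3a and DMSO are numbered 1 to 3 in the labels, and the deviations of libraries from their group means were checked. Pairs with 1 number had correlations of 0.62, 0.60 and 0.64, which was taken as pairing. Pairs with different numbers lay between -0.47 and -0.19. Deviations cancel out within a group, so those negative values are not separate evidence of pairing. ATAC-seq, ChIP-seq and 4C data were not analysed here.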

Additional observations from a re-analysis of the deposited data

How the results depend on the processing

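CDKN1A with Nutlin-3a was DE under all 16 alternatives. Over the members' log2 fold changes, 81 of 97 alternative fits between G12V and MCF10A and 93 of 96 with Nutlin-3a kept their direction and side of the threshold, 13 and 0 passed it newly, and 3 and 3 changed sign. The number of members DE in G12V cells was 0, and 2 with DESeq2, 2 with edgeR's exact test, 3 with more than a 1.3-fold change and an unadjusted p under 0.05, and 0 to 1 when a library was left out. CDKN1C in G12V cells turned to -0.14 with the replicate block, -0.03 without the first MCF10A library and -1.52 without the second G12V library, where the highest value was 0.99 without the first. With Nutlin-3a it ranged from -0.74 to 0.27 when a library was left out, turning without the first DMSO library, and CDKN2D from -0.25 to 0.071, turning without that library and, at 0.05, without the third Nutlin-3a library. The causes were not tested.

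All DE genes between the lines numbered 1575, and 2526 with edgeR's exact test, 3676 at the unadjusted threshold and 0 to 2129 when a library was left out. The 0 came without the first MCF10A library, where edgeR's quasi-likelihood F-test still gave 2830 genes at an unadjusted p under 0.05. With Nutlin-3a they numbered 23, and 91 with DESeq2, 83 with the exact test, 99 with no filter, 332 at the unadjusted threshold, 165 with the replicate block and 7 to 11 when a library was left out, and the block changed no call of a member there. Between the lines the replicate block gave 4158 DE genes of 14376 tested, and 4 of the 7 tested members, CDKN1A, CDKN1B, CDKN2C and CDKN3. The deviations of same-numbered libraries correlated at 0.49 and those of libraries with different numbers at -0.49. With 2 libraries a group the deviations mirror each other, so these are not separate values. Whether these libraries are paired was not settled, and the block was kept as an alternative, as it was with Nutlin-3a. Leaving out 1 of 2 libraries leaves a lone sample that is assumed to vary like the other group. At the depth of these libraries a member under 3 counts was not detectable.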
